A study of Mus musculus with 4 samples.

Results

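A set of 509 Pax7 binding sites lying close to the start sites of the genes named Active II is described, out of 20579 Pax7 peaks called in mouse muscle progenitors. Active II is a list of 482 genes from the study that reported these peaks, which grouped genes in contact with Pax7-bound enhancers by their expression over embryonic stem cells (ESCs) and iPax7 cells. A peak was taken as a member when its summit, the base with the highest enrichment, lay within 25 kb of the transcription start site (TSS) of an Active II gene in the NCBIM37 (mm9) genome. The rule counts peaks by distance only, and whether a peak touches the promoter in 3 dimensions was not analysed here. Since the genes had been selected on their Pax7-bound enhancers, their peak numbers are given as a description, and an excess over other genes is no evidence.

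The cells were iPax7 muscle progenitors, derived from mouse ESCs that carry a single doxycycline (Dox)-inducible Pax7 transgene inserted beside the Hprt gene. The ESCs were differentiated in serum, and Dox (1 µg/ml) was added at day 3 and kept for 6 days. PDGFRα+FLK1- cells were sorted at day 5, and chromatin was taken at day 9. The samples were 2 Pax7 ChIP-seq libraries and 2 input libraries, all with Dox, and they come from a transgene-driven model rather than from satellite cells. The authors merged each pair before calling peaks, so every value has no replicate error and no test between conditions could be made, and because the peak list holds no read numbers, the reads behind each peak are unknown. Peak height is the fold enrichment, the authors' ratio of merged ChIP over local background at the summit.

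Pax7 is a paired-box transcription factor that marks satellite cells, the resident stem cells of skeletal muscle. It binds DNA through a paired domain and a homeodomain, and it is known to open closed chromatin and to favour enhancers over promoters. Enhancers often lie far from the genes that they act on, and active genes of a progenitor include both lineage regulators and the housekeeping machinery of a dividing cell.

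The sequences at the summits of named peaks are shown first because they carry the sites that the Pax7 domains read. Each window reaches 50 bp to either side of the summit, except at Pnma1, where the window overlaps untranslated sequence and 30 bp are printed. The letters are those of the NCBIM37 genome, and capitals mark a Pax motif. GTCACG is the core recognised by the paired domain, and CGTGAC is the same core on the other strand. ATTAGTCA joins the homeodomain core to part of a paired-domain site, and TGACTAAT is its other strand.
Smu1 (chr4:40721438-40721538, plus strand): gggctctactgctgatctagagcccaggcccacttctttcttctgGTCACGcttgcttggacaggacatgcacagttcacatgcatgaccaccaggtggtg
Wwp2 (chr8:109974693-109974793, plus strand): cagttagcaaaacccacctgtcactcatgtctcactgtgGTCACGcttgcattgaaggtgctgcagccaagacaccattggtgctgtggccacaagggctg
Pnma1 (chr12:85483374-85483403, plus strand): agaatgagtctgTGACTAATgaagcaacag
Cdh15 (chr8:125356735-125356835, plus strand): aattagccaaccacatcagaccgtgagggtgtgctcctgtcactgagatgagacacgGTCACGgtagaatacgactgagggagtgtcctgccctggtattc
En1 (chr1:122499984-122500084, plus strand): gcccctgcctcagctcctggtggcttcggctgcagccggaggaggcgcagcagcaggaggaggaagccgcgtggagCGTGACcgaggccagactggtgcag
Tnnt1 (chr7:4468265-4468365, plus strand): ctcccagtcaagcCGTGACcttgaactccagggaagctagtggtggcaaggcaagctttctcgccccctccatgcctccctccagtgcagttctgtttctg
The centres of these 6 motifs lay between -34.5 and 28.5 bp of the summit, where negative means to the left on the plus strand. In Smu1 and Wwp2, the highest peaks among those printed with a core, the motif had offsets of -2.5 and -8.5 bp, and it was followed by the same bases, ctt. A core followed by CTT was seen in 4 of the 69 members with a core (5.80%), against 4.97% of the 2292 cores at all peaks.

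A pair of high peaks without a Pax motif is shown for contrast, at Prkcq and Chrna1. No match says only that these letters are not in the window.
Prkcq (chr2:11086033-11086133, plus strand): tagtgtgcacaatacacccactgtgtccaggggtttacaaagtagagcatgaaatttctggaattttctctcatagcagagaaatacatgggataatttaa
Chrna1 (chr2:73410799-73410899, plus strand): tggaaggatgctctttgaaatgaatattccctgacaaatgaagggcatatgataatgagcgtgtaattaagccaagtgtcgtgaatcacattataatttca
The Prkcq window held none of the motifs searched, and the Chrna1 window held an AP-1 motif.

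The 509 peaks lay on 20 chromosomes and covered 300 of the 482 Active II genes (62.2%). In the annotation as a whole, 8652 of 22367 protein-coding genes (38.7%) had a peak within the same distance. The corresponding numbers were 276 of 401 genes (68.8%) for Active I, 298 of 443 (67.3%) for Active III and 240 of 365 (65.8%) for Primed, which were chosen in the same way. Of the Active II genes with a peak, 156 had 1, 89 had 2, 30 had 3, 19 had 4 and 6 had between 5 and 9. The remaining 182 genes had their nearest peak between 25.6 and 490 kb away, with a median of 48.9 kb. Of these, 93 had it within 50 kb, 59 between 50 and 100 kb, and 30 beyond 100 kb.

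Many of the peaks had more than one gene in reach. Of the 509 members, 26 lay within 25 kb of at least 2 Active II genes, which gave 536 pairs of peak and gene. The nearest annotated TSS belonged to an Active II gene for 351 members and to another gene for 158, and 383 were nearest to an Active II gene when protein-coding TSSs alone were considered. In all, 94 members were also in reach of an Active I, Active III or Primed gene. 

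The tallest members were found at genes of several functions. The highest value, 19.2-fold, ranked at 55 among all peaks and belonged to a peak 16.5 kb upstream of Smu1, a splicing factor (chr4:40721288-40721656). Its nearest start, however, was that of Gm12396, at 1109 bp. The second, with 18.6-fold enrichment, was 7.66 kb upstream of Prkcq, which encodes a protein kinase C (chr2:11085668-11086293), in sequence between genes. The third, with 18.1-fold enrichment, lay in an intron of Bphl and was in reach of both Bphl and the tubulin gene Tubb2a (chr13:34149122-34149423).

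Pnma1 had the largest −log10 q of the 10 tallest members, 109, at a peak of 17.9-fold (chr12:85483238-85483619). It lay 6.03 kb downstream of the Pnma1 start, in an untranslated exon of Dnalc1. Wwp2, a ubiquitin ligase, held a peak of 17.5-fold in an intron 14.4 kb downstream of its start (chr8:109974575-109974892). The peak at Tpm1, which encodes tropomyosin of the thin filament, reached 16.9-fold at 22.3 kb upstream (chr9:66919333-66919761). The other 4 were at Igfbp5 with 16.2-fold, Cdc42ep3 with 14.3-fold, Chrna1 with 13.4-fold and Ddc with 13.4-fold. Of these 10 peaks, 1 lay within 1 kb of a TSS, namely that of Cdc42ep3, 826 bp upstream of the gene, and 3 held a Pax motif. Over all peaks the shares were 16.3% and 14.5%, and 24.5% of all peaks of at least 10-fold held a Pax motif. Counts of 10 peaks are too small to set apart from these.

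Myf6, Eya4, Meis1 and En1, regulators on the list, had peaks from 3.96 to 7.67-fold. The quartiles of all members were 4.08 and 6.44. Myf6, a myogenic bHLH factor, had 4 peaks with fold enrichments of 4.11, 5.17, 6.32 and 6.24. The last pair lay downstream of Myf6, beside its neighbour Myf5, another myogenic bHLH factor. The peak of 6.32-fold (chr10:106923933-106924199) was 892 bp from the Myf5 start, and the peak of 6.24-fold (chr10:106921928-106922161) was in a Myf5 intron. Myf5 was their nearest gene.

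Eya4, a transcriptional cofactor, had a single intronic peak of 3.96-fold. Meis1, a TALE homeobox factor, had a peak of 7.15-fold at 1.58 kb upstream and another of 3.98-fold at 4.28 kb downstream. En1, the engrailed homeobox gene, had 1 peak of 7.67-fold in its own coding exon, 1039 bp downstream of the start (chr1:122499926-122500183), and this was the tallest among the regulators. No peak was within 25 kb of Runx1 or Vgll2, whose nearest peaks were 64.6 and 40.7 kb away.

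Genes of the muscle fibre and its surface showed a wider range. Acta1, skeletal muscle actin, had 6 peaks at 6.80, 4.53, 5.35, 5.23, 8.09 and 10.2-fold, from 1.37 kb upstream to 22.5 kb downstream. All of them lay inside the long annotated model Gm20388, and the pair furthest downstream was nearer to 1700054N08Rik than to Acta1. Ttn, which encodes titin, had peaks of 7.01, 5.90 and 3.66-fold at 24.7 kb upstream, 2.13 kb upstream and 714 bp downstream. The slow troponin genes had 1 peak each, of 2.88-fold at 22.1 kb upstream of Tnni1 and of 5.39-fold at 331 bp upstream of Tnnt1 (chr7:4468161-4468421). The Tnnt1 peak held a core, and the Tnni1 peak was among the lowest members.

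Chrna1, the alpha subunit of the muscle acetylcholine receptor, had 3 peaks that differed widely in height. They measured 2.88-fold and 3.31-fold at 8.80 and 6.42 kb upstream, and 13.4-fold at 7.55 kb downstream in a Chrna1 intron (chr2:73410679-73411014). Cdh15, which encodes M-cadherin, had a peak of 8.22-fold at 15.1 kb upstream (chr8:125356638-125356951), with a core, and one of 6.83-fold at 2.84 kb downstream. The peak of 8.22-fold lay in an intron of another gene model, and its nearest start was that of Gm16378. Mstn, the inhibitor of muscle growth myostatin, had 2 intronic peaks of 3.44 and 4.38-fold. Dok7, of the neuromuscular junction, and Ccnd2, a D-type cyclin, had no member peak, and their nearest peaks were 49.1 and 131 kb away.

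Counted together, 11 of these 15 genes had 26 peaks. Of the 26, 16 (61.5%) had at least 5-fold enrichment, against 54.9% of all peaks, and 3 (11.5%) held a Pax motif, against 14.5%. The map of these peaks by distance from each start shows that they were not gathered at the start itself.

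**Figure D1:**
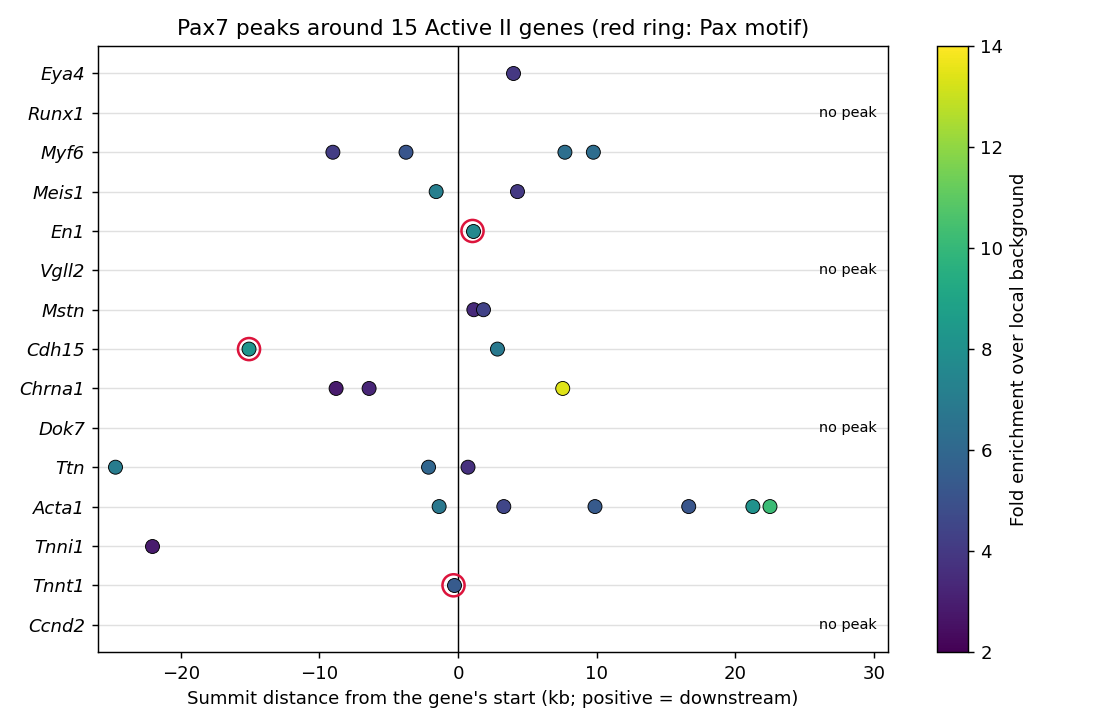
Each row is 1 of 15 Active II genes, and each point is a Pax7 peak placed by the distance of its summit from the gene's start in kb, with positive values downstream. Point colour is the fold enrichment over local background and a red ring marks a Pax motif; 4 genes had no peak within 25 kb, and the tallest point is the Chrna1 intron peak of 13.4-fold.

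The gene with the most peaks was Tubb2b, a beta-tubulin, with 9. They ran from 18.9 kb upstream to 20.4 kb downstream and from 3.70 to 10.8-fold, with a median of 4.58-fold. The tallest, 10.8-fold, was 521 bp downstream of the start (chr13:34221578-34221867). None of the 9 held a Pax motif, a number of peaks too small to set against the 14.5% of all peaks. Sytl2, which acts in vesicle transport, had 6 peaks from 3.96 to 9.25-fold, 3 upstream and 3 in its introns, and the tallest was 20.5 kb downstream of the start.

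By hand, 169 of the Active II genes were sorted into 8 groups of known function. The sorting was not complete, since genes such as Smu1, Prkcq and Tubb2b and zinc-finger genes such as Zfp763, which had a peak of 11.4-fold, were placed in none, so the highest value of a group depends on it. In the group of transcription factors and cofactors, 16 of 22 genes had 31 peaks, with a median of 4.69-fold and a highest value of 7.67-fold. After En1, the highest values were 7.15-fold at both Meis1 and the p53 family gene Trp63, and 6.40-fold at Nfe2. The Nfe2 peak was 17.7 kb from its gene, at the promoter of Hnrnpa1. The tallest peak of the other 7 groups was between 9.84 and 16.9-fold.

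Sarcomere, actin and excitation-contraction genes had the largest share of genes with a peak among the 8 groups, 27 of 33. Over all Active II genes it was 300 of 482 (62.2%), and the difference was not tested. The group had 61 peaks and a median of 5.12-fold. Of these peaks, 33 (54.1%) were at least 5-fold, close to the 54.9% of all peaks. Below Tpm1, the tallest were at Klhl31, a kelch protein of muscle, with 11.3-fold at 7.71 kb upstream, and at the protease gene Capn2, with 10.6-fold at 2.75 kb upstream. The peak of 10.6-fold assigned to Pdlim7, a PDZ and LIM protein of the cytoskeleton, lay 23.0 kb upstream, in fact 19 bp from the start of Ddx41. No peak was found for 6 genes, Acta2, Actn2, Nexn, Capzb, Sync and Limch1.

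In the neuromuscular junction and excitability group, 8 of 12 genes had 17 peaks, and the median was 4.82-fold. Panx1, a channel gene, had an intronic peak of 9.41-fold, and Cnr1, the cannabinoid receptor, had 5 peaks with the tallest of 8.19-fold at 307 bp upstream of the start, with a Pax motif. Gfra1, a co-receptor for GDNF, had 7.003-fold in an intron.

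For adhesion and extracellular matrix, 14 of 21 genes had 27 peaks, with a median of 4.80-fold. The peak at Anxa5, which encodes a phospholipid-binding annexin, had its summit on the start itself, with 13.2-fold enrichment. Col19a1, a collagen gene, had 4 peaks, of which the tallest, 10.4-fold at 3.81 kb upstream, and the one at 422 bp downstream each held a Pax motif. Col25a1, another collagen gene, had 9.07-fold at 19.3 kb upstream. No peak was found for 7 genes.

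Secreted signals and receptors had 16 peaks at 11 of 18 genes, with a median of 4.88-fold. Igfbp5, which binds insulin-like growth factors, led with 16.2-fold at 4.22 kb upstream (chr1:72925245-72925885). Vasn had 10.7-fold at 16.1 kb downstream, in introns of Coro7 and Dnaja3. Znrf3, a ubiquitin ligase that removes Wnt receptors, had 9.07-fold with a Pax motif at 229 bp upstream, and the chemokine receptor gene Cxcr7 had 8.54-fold in its intron.

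Cell cycle and growth arrest genes had 22 peaks at 8 of 13 genes, with a median of 4.51-fold. Gadd45a, a stress-induced gene of growth arrest, had 4 peaks, with 9.84-fold at 928 bp downstream. That summit was 70 bp from the start of E230016M11Rik. Ppp1r15a, a regulatory subunit of protein phosphatase 1, had 8.17-fold at 4.30 kb downstream in a coding exon of Tulp2, with a Pax motif. The antiproliferative gene Tob1 had 4 peaks, the tallest of 6.98-fold at 231 bp upstream, and Mnat1, of the kinase complex that activates cyclin-dependent kinases, had 1 peak of 5.90-fold. The Mnat1 peak was 23.7 kb downstream, where SNORA17 had the nearest start.

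The housekeeping groups had their peaks nearest to the start. Of 35 mitochondria and energy genes, 22 had a peak, 12 of them within 1 kb, and the median distance of the nearest peak was 0.622 kb. In the ribosome and translation group, 10 of 15 genes had a peak, 7 of them within 250 bp, and the median was 0.157 kb. Over all Active II genes with a peak, 118 of 300 had one within 1 kb and 75 within 250 bp, with a median of 2474 bp. For the genes in no group the median was 2.82 kb. Sdhd and Timm8b share the same 3 peaks, and both are counted among the 12 genes. In the other groups the median was 1.47 kb for neuromuscular junction and excitability, 2.02 kb for secreted signals and receptors, 2.41 kb for cell cycle and growth arrest, 3.12 kb for sarcomere, actin and excitation-contraction, 3.82 kb for adhesion and extracellular matrix and 3.85 kb for transcription factors and cofactors. These are counts from small groups sorted by hand, with no test.

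Atp5g3, which encodes a subunit of ATP synthase, had 12.6-fold at 112 bp upstream with a Pax motif (chr2:73749311-73749704). Ndufa13, a subunit of respiratory complex I, had 13.2-fold at 834 bp downstream, with Tssk6 as the nearest start. Mrpl50, a mitochondrial ribosomal protein, had 10.5-fold at 409 bp downstream, and Tars, a tRNA synthetase, 11.5-fold at 121 bp upstream. The elongation factor gene Eef1g had 13.1-fold at 15.6 kb downstream, but the nearest start was Ahnak. The initiation factor genes Eif2b2 and Eif3k had 7.06-fold and 6.94-fold, and Ndufv2, of complex I, had 8.37-fold at 24.4 kb, at the promoter of Ankrd12. The Eif3k peak was 12.2 kb downstream, and its nearest start was that of Actn4. Pax motifs were in 1 of 17 ribosome and translation peaks and 7 of 31 mitochondria and energy peaks, beside 14.5% of all peaks, and counts this small were not compared.

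The 313 genes in no group had 296 peaks, with a median of 4.94-fold, and 184 of them had at least 1 peak.

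**Figure D2:**
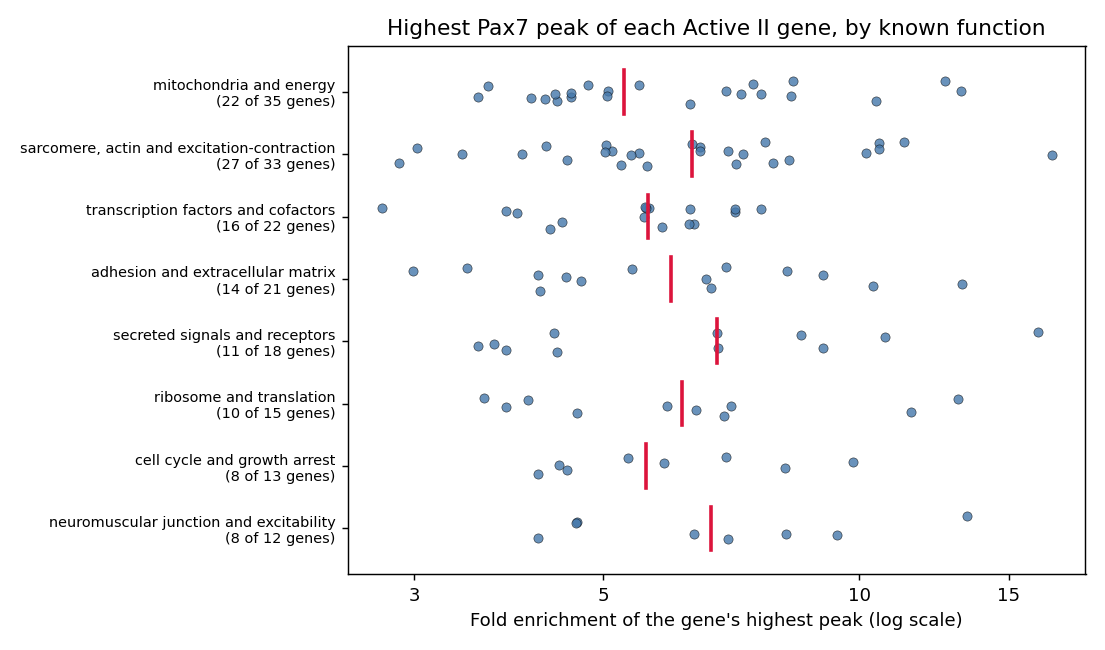
Each point is an Active II gene with a peak, placed by the fold enrichment of its highest Pax7 peak (log axis), and each row is a group sorted by known function, with the red bar at the median of the genes shown. The medians range from 5.30-fold for mitochondria and energy to 6.80-fold for secreted signals and receptors, and the rows overlap widely.

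Peaks gathered at the gene starts. Of the 536 pairs, 262 were upstream and 274 downstream or on the start, and 126 were within 1 kb and 225 within 5 kb. The bin from 0 to 1 kb held 72 upstream and 54 downstream pairs. From 20 to 25 kb there were 36 and 41. A peak lay within 1 kb of the start for 118 genes and within 250 bp for 75, and over the genes with a peak the median distance of the nearest was 2474 bp. These distances were not counted for other genes. The gathering is not known to be particular to Active II, since 36.1% of members and 36.5% of peaks near any protein-coding gene lay within 1 kb of a TSS.

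**Figure D3:**
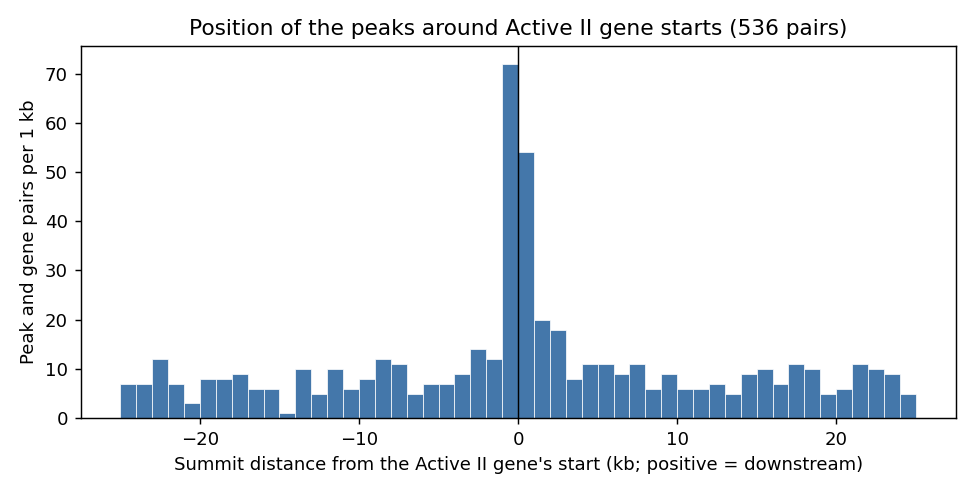
The histogram counts pairs of a Pax7 peak and an Active II gene per 1 kb of distance between the summit and the gene's start (kb, positive is downstream). The bins on either side of the start hold 72 and 54 pairs, and bins beyond 5 kb hold far fewer.

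By annotation, 184 members (36.1%) had an annotated transcript start within 1 kb, against 16.3% of all peaks. Because members were chosen by distance from a TSS, a higher share is built into the rule. Among the 8176 peaks within 25 kb of any protein-coding gene the share was 36.5%, and it was 32.0% near Active I, 34.8% near Active III and 33.5% near Primed genes. The other members were 23 in exons (4.52%), 166 in introns (32.6%) and 136 between genes (26.7%). Their median heights were 4.95-fold at promoters, 5.79-fold in exons, 4.76-fold in introns and 5.00-fold between genes.

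Fold enrichment ran from 2.40 to 19.2, and its median was 4.92 and its quartiles were 4.08 and 6.44. Over all peaks the median was 5.22, the quartiles being 4.32 and 6.74, and among peaks near any protein-coding gene it was 5.07. Active I, Active III and Primed had medians of 5.13, 5.08 and 5.11. At least 5-fold enrichment was reached by 246 members (48.3%), against 54.9% of all peaks, and at least 10-fold by 34 (6.68%), against 6.99%. Peak width was near equal, with a median of 254 bp for the members and 252 bp for all.

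**Figure D4:**
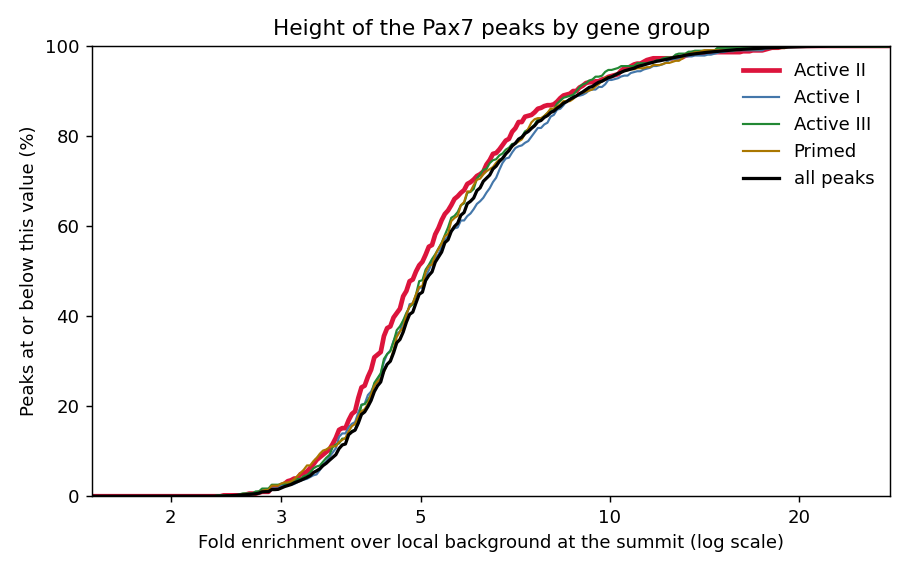
Each curve gives the percentage of peaks at or below a fold enrichment (log axis) for the 509 members (Active II), for the other 3 gene groups and for all 20579 peaks. The Active II curve lies above the others between 4 and 6-fold, with a median of 4.92 against 5.22 for all peaks, and the curves meet at high values.

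Height changed little with distance. The median was 4.96-fold for the 123 members within 1 kb of an Active II start, 5.09 for the 98 at 1 to 5 kb and 4.79 for the 70 at 20 to 25 kb. Base composition did change with distance. The G and C content of the window around the summit was 49.5% at the median member, against 45.5% over all peaks and 48.5% over those near any protein-coding gene, and it was 57.4% at the members within 1 kb. The mean number of CpG in the window was 3.69 for members, 2.43 for all peaks and 3.62 for those near any protein-coding gene.

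Pax motifs were found in 86 of the 509 summit windows (16.9%), against 14.5% of all peaks and 17.3% of peaks near any protein-coding gene. A further motif, the homeodomain dimer of TAAT and ATTA joined by 2 bases, was searched with the others, on both strands. The paired-domain core GTCACG was in 69 members (13.6%), the homeodomain-paired site ATTAGTCA in 18 (3.54%) and the dimer in 2 (0.393%). Over all peaks these shares were 11.1%, 2.94% and 0.831%. In windows of the same width centred 500 bp to the left and right, any Pax motif was in 1.96% and 1.38% of members. A shuffled core that keeps its CpG, GACTCG, was in 11 summit windows (2.16%) and in 1.38% and 1.18% of the flanks.

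Motifs of other factors varied in the same windows. The E-box CAGCTG, bound by myogenic bHLH factors, was in 84 members (16.5%), against 15.7% of all peaks and 14.1% of peaks near any protein-coding gene. AP-1 (TGANTCA) was in 4.52% of members against 6.82% of all peaks, TEAD (GGAATG) in 7.66% against 10.96% and RUNX (TGTGGT) in 7.86% against 9.73%. Among peaks near any protein-coding gene these shares were 5.64%, 9.47% and 8.10%. Each lay between the members and all peaks, and it was close to the members only for RUNX. Both a Pax motif and an E-box were in 12 of the 509 members, at least 1 of them in 158, and 291 held none of the 7 motifs. These joint counts were not made over all peaks, so they are not known to be particular to the members. The median distance from summit to motif centre was 14.5 bp for the paired-domain core and 21.5 bp for the E-box. It was 20.5 bp for TEAD, 22 bp for AP-1 and 25 bp for RUNX, so the E-box was not set apart from these. For the shuffled core it was 34.5 bp, over 11 windows.

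**Figure D5:**
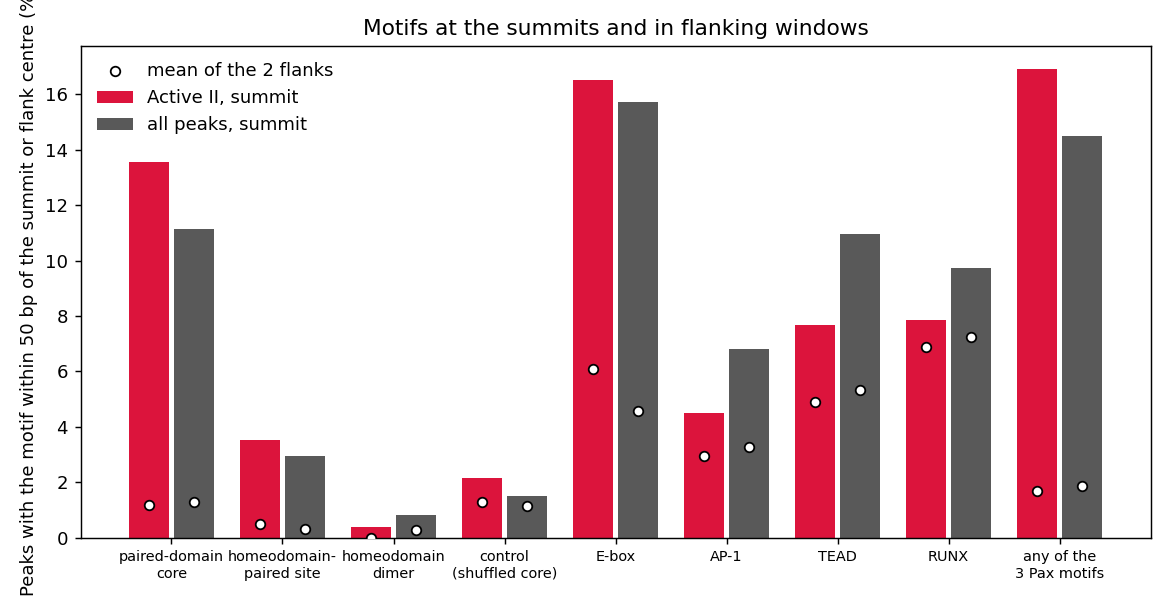
Bars give the percentage of peaks with each motif within 50 bp of the summit, for the members near Active II genes and for all peaks, and white points give the mean of the windows 500 bp to either side. Among the single motifs, the paired-domain core and the E-box have the largest gaps over their flanks in percentage points in both sets. As a ratio to its flanks, the homeodomain-paired site exceeds the E-box. The shuffled core is at 2.16% at the summits of members and 1.51% over all peaks.

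Taller members held Pax motifs more often. They were in 35 of 263 peaks below 5-fold (13.3%), in 41 of 212 between 5 and 10-fold (19.3%) and in 10 of 34 at 10-fold or more (29.4%). Over all peaks the shares were 11.7%, 15.6% and 24.5%. The median height was 5.31-fold for the 86 members with a Pax motif and 4.82-fold for the 423 without. By annotation, a Pax motif was in 40 of 184 members within 1 kb of a TSS (21.7%), in 6 of 23 in exons (26.1%), in 13.3% of those in introns and in 13.2% of those between genes. Over all peaks the same classes had 19.9%, 18.3%, 14.02% and 12.5%. In the same order, the median G and C content of the members was 56.4%, 50.5%, 46.5% and 47.5%, and its part in the shares was not tested. The E-box was in 12.5%, 13.0%, 18.7% and 19.9% of members, against 9.34%, 23.3%, 17.1% and 16.4% of all peaks. In the first kb from an Active II start, Pax motifs were in 20 of 72 pairs upstream (27.8%) and 8 of 54 downstream (14.8%), but the order turned from 1 to 5 kb, with 14.3% and 15.8%, and from 5 to 10 kb, with 13.95% and 17.4%. Upstream was again higher from 15 to 20 kb, with 24.3% and 11.6%. Downstream was higher from 10 to 15 kb (18.8% and 21.2%) and from 20 to 25 kb (8.33% and 9.76%).

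The limit of 25 kb cut through a continuous spread. Just inside it were peaks of 4.39-fold at 24.6 kb from Srpr, 7.01-fold at 24.7 kb from Ttn and 3.96-fold at 24.7 kb from 2010321M09Rik. Just outside were peaks of 15.9-fold at 25.4 kb from E2f6, 9.53-fold at 25.5 kb from Ddc and 6.85-fold at 25.6 kb from Mstn.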

How the data were processed

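Pax7 ChIP-seq and inputs were measured in iPax7 cells with Dox. Reads were mapped by the authors to mm9 (bowtie2), reads with more than one position and duplicates (Picard) were discarded, the 2 replicates of each kind were merged, and MACS2 peaks with a q-value under 0.01 were kept. MACS2 and mm9 are also in the submitters' processing notes. The deposited list gives, per peak, the fold enrichment (a ratio over local background), the p-value and q-value as −log10, and a score, all made by the authors. It had 0 per-sample columns that match no sample. As the file gives no read counts, the depth of a peak is unknown and no interval for it was computed.

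Here, summits were placed on NCBIM37 and GENCODE vM1 (1-based coordinates), using the gene start of each Active II gene as TSS. Chromosome lengths allowed every summit. Promoters were within 1 kb of any transcript's TSS. Motifs were searched within 50 bp of the summit. No test was made. The scripts were tested on simulated data first. Named were the 10 tallest peaks, the 3 genes with the most peaks, up to 4 genes with the tallest peak per functional group, all peaks of 15 chosen genes (another item on that list is not reported here), and peaks beside the 25 kb limit. The genes without a peak that are named in the sarcomere group, and the bases after the core, were picked with their values in view. The members, gene groups and lists were chosen with earlier results of these data known. Alternatives were 10, 50 and 100 kb, −log10 q or fold enrichment of at least 5, merging within 500 bp, any transcript's TSS, nearest TSS, leaving out peaks near other groups, motif windows of 25 and 100 bp, 5 kb promoters and protein-coding TSSs. Python 3.11.15, pandas 2.3.3, numpy 2.4.6, pysam 0.24.0 and matplotlib 3.10.9 were used.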

Additional observations from a re-analysis of the deposited data

How the results depend on the processing

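No paired analysis was possible because the replicates were merged before peaks were called, so no replicate could be left out either. Of 27 alternative values, 10 moved and 17 did not, where a count was taken as moved when it changed by more than 1.5 times and a median or share when it left its 95% interval over peaks. Peaks of a single merged list are not replicates, and the alternatives overlap in their peaks. The labels therefore describe only the size of a change. Among the 17 values that did not move were 351 and 383 member peaks by the nearest TSS and 695 with the TSS of any transcript, and 223 genes within 10 kb, 224 by the nearest TSS and 393 within 50 kb. The number of member peaks was 302 within 10 kb, 891 within 50 kb and 1612 within 100 kb of a start, and 246 at a fold enrichment of at least 5. The number of Active II genes with a member was 452 within 100 kb and 198 at a fold enrichment of at least 5. The share of members with a Pax motif was 10.8% within 25 bp of the summit, 22.0% within 100 bp and 20.7% at a fold enrichment of at least 5, where all peaks gave 9.35%, 18.6% and 16.8%. The share near a TSS was 60.7% with 5 kb, against 29.4% of all peaks. The median fold enrichment stayed between 4.90 and 5.12 under the alternatives run for it. Its highest value, 5.12 at −log10 q of at least 5, equalled the upper limit of its interval, and all peaks gave 5.39 at that setting. The 95% Wilson intervals, which cover counting error over peaks only, were 13.9 to 20.4% for the Pax motif share and 32.1 to 40.4% for the TSS share. Depth limits weak peaks, and this could not be measured from the list.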
